A study of Mus musculus with 2 samples.

Results

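The long noncoding RNAs Malat1, Neat1, Meg3 and Snhg11 were followed in single-cell RNA-Seq of pancreatic islets from WT and GKO (ghrelin-knockout) mice. They were taken by gene symbol and are 4 of the 27998 genes in the matrices, with 1 entry each (Malat1 ENSMUSG00000092341, Neat1 ENSMUSG00000092274, Meg3 ENSMUSG00000021268, Snhg11 ENSMUSG00000044349). The WT library held islet cells of C57BL/6N wildtype mice, and the GKO library held islet cells of C57BL/6N mice homozygous for the ghrelin deletion. Mice were 8 weeks old, the islets of 4 mice were pooled for each genotype, and viable cells were sorted by flow cytometry before droplets were made. Every captured transcript carried a unique molecular identifier (UMI), and each barcode stands for 1 droplet. With 1 library per genotype there is no replicate, so no test was made, and every interval given here is a 95% interval that covers counting error only.

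Barcodes were classed by the hormone that led them. A barcode was insulin-led, Gcg-led, Sst-led or Ppy-led when the transcripts of Ins1 and Ins2 together, glucagon (Gcg), somatostatin (Sst) or pancreatic polypeptide (Ppy) were its largest hormone share and at least 10% of its UMIs. All others were called nonendocrine. The WT library held 2370 insulin-led, 1078 Gcg-led, 1424 Sst-led, 731 Ppy-led and 2189 nonendocrine barcodes, of 7792 in all. The GKO library held 1044, 1429, 1030, 677 and 3109 barcodes of these classes, of 7289 in all. Just inside the limit, at 10 to 12% of UMIs, lay 173 WT and 181 GKO barcodes, and just outside, at 8 to 10%, lay 122 and 153. Of 6 markers fixed for each hormone-led class, all 6 were highest in their own class for insulin-led and Sst-led barcodes in both libraries, 5 for Gcg-led barcodes and 3 for Ppy-led barcodes. In the list for Ppy-led barcodes, Etv1, Isl1 and Chga were higher in another class.

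The libraries held 158067110 WT and 103511757 GKO UMIs, with medians of 13934 and 10521 UMIs per barcode. They shared 18 barcode sequences. Ghrl, the deleted gene, had 276 counts per 1000000 UMIs (CPM) in WT and 2.71 in GKO. Over 10% mitochondrial UMIs were found in 596 WT and 882 GKO barcodes. In insulin-led barcodes that share was 3.97% in WT and 16.2% in GKO, which bears on the ratios between genotypes below.

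Long noncoding RNAs are transcribed and processed much like messenger RNAs but act as RNA. Malat1 is kept in the nucleus, where it gathers in nuclear speckles, the bodies that hold splicing factors. Neat1 is the RNA scaffold of paraspeckles, nuclear bodies that form around its long isoform and that grow in stressed cells. Meg3 is read from the maternal chromosome at the imprinted Dlk1-Dio3 domain and is known from endocrine and neural tissue, including islets. Snhg11 belongs to the genes that carry small nucleolar RNAs (snoRNAs) in their introns, and it is known as a neuronal transcript.

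In GRCm38, the build that mm10 names, with the GENCODE vM21 annotation, Malat1 is at chr19:5795690-5802672 and Neat1 at chr19:5824708-5845478, both on the minus strand. Meg3 is at chr12:109541001-109571726 and Snhg11 at chr2:158375638-158386145, both on the plus strand. Malat1, Neat1 and Meg3 are annotated as long intergenic noncoding RNA genes, whereas Snhg11 is annotated there as protein coding, which goes against its grouping with noncoding RNAs. By UMIs, with no scaling for length, Malat1 ranked 8 among all genes in both libraries, Meg3 38 in WT and 45 in GKO, Neat1 928 and 687, and Snhg11 3395 and 3075. The description as abundant thus held for Malat1 and Meg3, and did not hold for Snhg11.

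The assay captures transcripts at A-rich ends and counts reads near them, so the 3′ ends of the annotated transcripts are shown first. Each is given as its last 30 bases on the transcript strand, with the polyadenylation signal AATAAA in capitals where these bases hold it. The signal was searched on the transcript strand alone, and 23.3% of all 141722 annotated transcripts held it in their last 30 bases.
Malat1-201, 1 exon, chr19:5795690-5795719: ttttatgaAATAAAaactaaatatctctca
Neat1-202, the short isoform of 3004 bases, chr19:5842307-5842336: tttacagcaaAATAAAggtttgagattgaa
Neat1-201, the long isoform of 20771 bases, chr19:5824708-5824737: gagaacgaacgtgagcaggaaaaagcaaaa
Meg3-207, 10 exons, chr12:109571692-109571721: atggtgctttcAATAAAtttcttgttttaa
Snhg11-201, 5 exons, chr2:158386116-158386145: gaaccacaaAATAAAcactgtcttccttaa
The long Neat1 isoform was without AATAAA in this window, and its last AATAAA stood 2071 bases before its end. The short isoform lies within the 5′ part of the long one, so counts per gene do not tell which isoform was caught.

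A second A-rich place matters for Malat1. Its main 3′ end is known to be made by a cut with RNase P just past an A-rich stretch encoded in the genome, and not by polyadenylation. The annotated Malat1-201 held 1 run of at least 8 A, shown here in capitals with its flanks.
Malat1-201, chr19:5795979-5796008: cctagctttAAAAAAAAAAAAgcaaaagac
The run of 12 A ended 298 bases before the annotated 3′ end, and 4.07% of all transcripts held a run of 12 A. The letters GCAAAA followed it directly and also closed the window of the long Neat1 isoform, whose end is known to be cut in the same way. Of all transcripts, 1.05% held GCAAAA in their last 30 bases. Neat1-202, Neat1-201 and Meg3-207 held no run of 8 A, and Snhg11-201 held 3. The longest Meg3 transcript, Meg3-209 of 14548 bases, held 7. How many UMIs came from such runs was not tested.

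Malat1, the speckle RNA, was found in nearly every barcode, but its level differed between the classes. It had 2024749 UMIs in WT, 1.28% of the library, and 1694008 in GKO, 1.64%. The WT level was 6367 CPM (interval 6351 to 6384) in insulin-led, 18195 in Gcg-led, 24722 in Sst-led, 21359 in Ppy-led and 20553 in nonendocrine barcodes. The GKO level was 7621 CPM (interval 7591 to 7650) in insulin-led, 19156 in Gcg-led, 23129 in Sst-led, 22490 in Ppy-led and 19347 in nonendocrine barcodes. Insulin-led barcodes were lowest and Sst-led barcodes highest in both libraries. A UMI of Malat1 was found in 99.1% to 100% of barcodes of the hormone-led classes, and in 93.4% of WT and 94.6% of GKO nonendocrine barcodes.

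The low Malat1 level of insulin-led barcodes moved with the share of UMIs that hormone transcripts took. The 8 hormone genes made up 65.5% of UMIs in WT and 62.7% in GKO insulin-led barcodes, against 30.5% in the Gcg-led barcodes of each library. Against insulin-led barcodes, the WT level was 2.86-fold higher in Gcg-led, 3.88-fold in Sst-led and 3.35-fold in Ppy-led barcodes. With hormone and mitochondrial genes left out of the total, these became 1.38-fold, 1.83-fold and 2.18-fold. In GKO they went from 2.51-fold, 3.03-fold and 2.95-fold to 1.30-fold, 1.52-fold and 2.00-fold. The nonendocrine barcodes were 3.23-fold above insulin-led barcodes in WT and 2.54-fold in GKO on the full total. Without hormone and mitochondrial genes they were at 1.15-fold in WT and 0.937-fold in GKO, so that the direction turned in GKO.

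Malat1 also varied widely within a class. Over WT insulin-led barcodes its level was 1011 CPM at the 10th percentile, 5039 at the median and 17107 at the 90th. Over WT Sst-led barcodes the same points were 5272, 22379 and 47277 CPM. In GKO they were 1382, 6443 and 24886 CPM in insulin-led and 5461, 21442 and 43438 CPM in Sst-led barcodes. As a ratio of the 90th to the 10th percentile the spread was wider in insulin-led than in Sst-led barcodes in both libraries, while in CPM it was narrower. The level within insulin-led barcodes moved with the share of insulin itself. In WT barcodes with 10 to 25% insulin UMIs Malat1 was at 28632 per 1000000 UMIs without hormone and mitochondrial genes. It was at 25025 with 25 to 40%, 22016 with 40 to 60% and 17256 with over 60% insulin. The GKO values were 40157, 26667, 23724 and 17758, and the 166 GKO barcodes in the lowest of these steps had a median mitochondrial share of 27.7%, against 8.62% in the 117 WT barcodes.

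**Figure D1:**
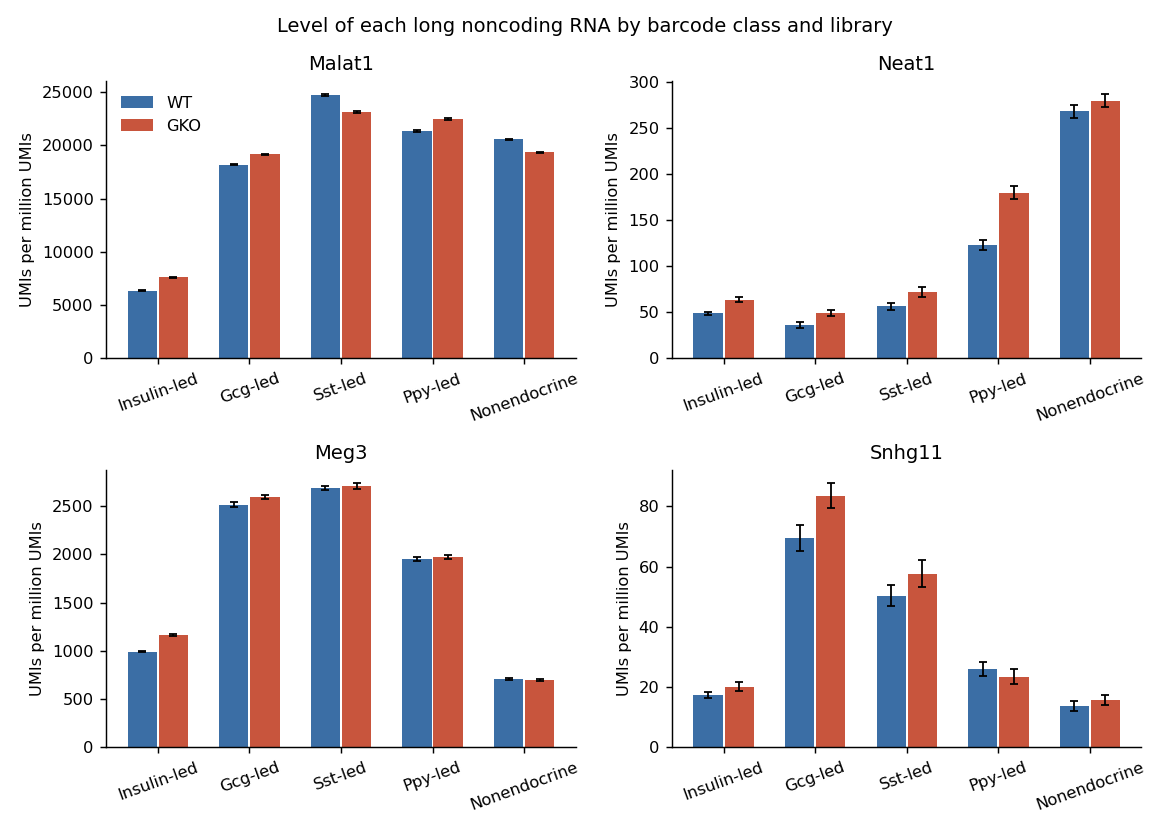
Level of each RNA in UMIs per 1000000 UMIs by barcode class, with WT in blue and GKO in red, 1 library each. Bars start at 0 and error bars are 95% Poisson intervals, which cover counting error only. Malat1 was lowest in insulin-led barcodes, Neat1 highest in nonendocrine barcodes, Meg3 lowest in nonendocrine barcodes and Snhg11 highest in Gcg-led barcodes in both libraries.

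Neat1, the paraspeckle scaffold, followed another order. It had 13205 UMIs in WT and 13389 in GKO. Its WT level was 36.2 CPM in Gcg-led, 48.8 in insulin-led, 56.4 in Sst-led, 123 in Ppy-led and 268 in nonendocrine barcodes. The GKO levels were 49.4, 63.8, 71.9, 180 and 280 CPM in the same order of classes. Ppy-led barcodes were 2.52-fold above insulin-led barcodes in WT (log2 interval 1.26 to 1.41) and 2.82-fold in GKO (1.41 to 1.58). Without hormone and mitochondrial genes in the total these ratios were 1.64-fold and 1.91-fold, and Sst-led barcodes moved from above insulin-led barcodes to 0.546-fold in WT and 0.565-fold in GKO. A Neat1 UMI was present in 53.8% of WT and 65.0% of GKO Ppy-led barcodes, and in 23.8% and 27.9% of Gcg-led barcodes. After thinning each barcode to 2000 UMIs the shares were 18.4% and 24.7% in Ppy-led and 5.96% and 8.30% in Gcg-led barcodes. Neat1 was unevenly spread within the classes. The upper 10% of Ppy-led barcodes held 53.1% of its UMIs in WT and 45.0% in GKO. That share was larger in Gcg-led (69.8% and 68.8%), Sst-led (57.9% and 55.8%) and nonendocrine barcodes (64.7% and 59.1%). It was smaller in insulin-led barcodes (37.8% and 38.6%). Such a share is larger where a barcode holds few UMIs, and the share expected from equal levels was not taken for Neat1. Neat1 UMIs per barcode numbered 0.494 in WT and 0.657 in GKO Gcg-led, and 1.85 and 2.07 in insulin-led barcodes. The order of the classes is thus no measure of how unevenly Neat1 was spread.

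Meg3, the imprinted RNA, was found in nearly every hormone-led barcode and in a minority of nonendocrine ones. It had 218882 UMIs in WT and 166648 in GKO. The WT level was 992 CPM in insulin-led, 2516 in Gcg-led, 2689 in Sst-led, 1953 in Ppy-led and 705 in nonendocrine barcodes. The GKO levels were 1166, 2599, 2712, 1974 and 693 CPM. At least 95.1% of the barcodes of each hormone-led class held a Meg3 UMI, against 38.8% of WT and 41.7% of GKO nonendocrine barcodes. At 2000 UMIs the nonendocrine shares were 28.0% and 30.9%, and those of Sst-led barcodes 98.1% and 98.2%. They were 97.5% in the Gcg-led barcodes of each library, and 88.9% in WT and 88.2% in GKO Ppy-led barcodes. Insulin-led barcodes, the deepest class, stood lower at this depth, at 81.1% in WT and 86.2% in GKO. The differences among hormone-led classes were small once hormone and mitochondrial genes were left out of the total, at 1.23-fold, 1.28-fold and 1.28-fold above insulin-led barcodes for Gcg-led, Sst-led and Ppy-led barcodes in WT. In GKO they were 1.15-fold, 1.17-fold and 1.15-fold. The nonendocrine level on that total was 0.252-fold of the insulin-led one in WT and 0.219-fold in GKO. With a hormone limit of 25%, which moves barcodes with less hormone to the nonendocrine class, the log2 ratio of nonendocrine to insulin-led barcodes turned from -0.49 to 0.92 in WT and from -0.75 to 0.65 in GKO.

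**Figure D2:**
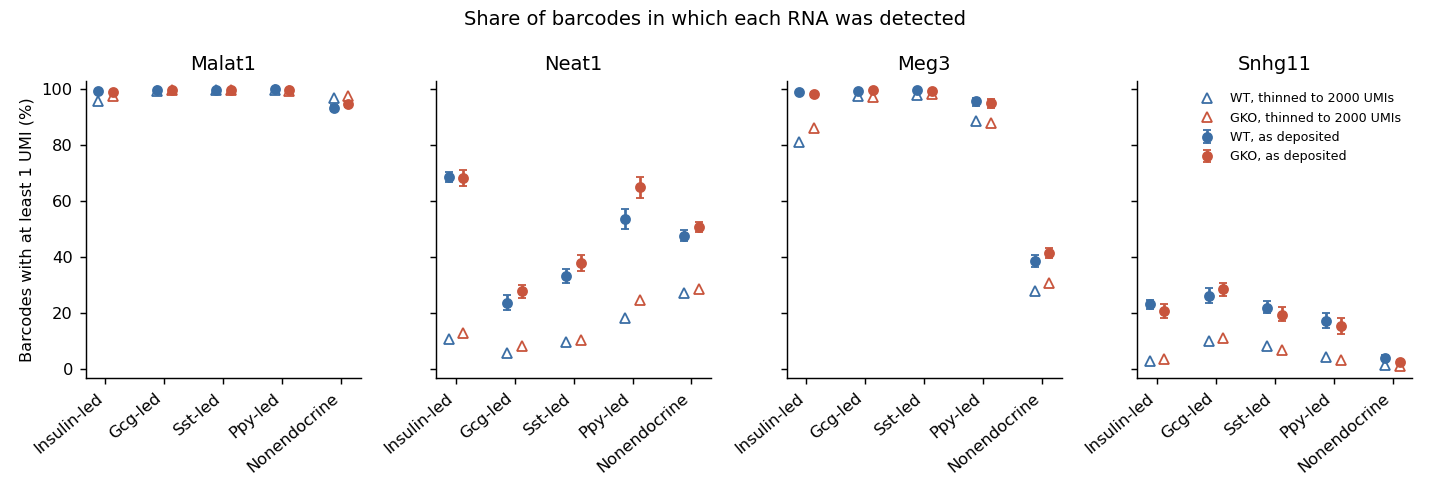
Share of barcodes with at least 1 UMI of each RNA, by class and library. Filled circles are the deposited counts with 95% Clopper-Pearson intervals, and open triangles are counts thinned to 2000 UMIs per barcode, with shallower barcodes left out. In the deposited counts Meg3 stood near 100% in hormone-led barcodes and at 38.8% and 41.7% in nonendocrine ones. Thinned, it stood at 81.1% in WT and 86.2% in GKO insulin-led barcodes. Snhg11 stayed at or below 28.6% throughout.

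Snhg11, the snoRNA host, was sparse and clustered in few barcodes. It had 4135 UMIs in WT and 3650 in GKO. The WT level was 17.3 CPM in insulin-led, 69.5 in Gcg-led, 50.2 in Sst-led, 25.9 in Ppy-led and 13.7 in nonendocrine barcodes. The GKO levels were 20.0, 83.6, 57.7, 23.3 and 15.7 CPM. Gcg-led barcodes were 4.01-fold above insulin-led ones in WT and 4.17-fold in GKO, and still 1.94-fold and 2.16-fold above without hormone and mitochondrial genes. Even so, only 26.3% of WT and 28.6% of GKO Gcg-led barcodes held a Snhg11 UMI. Had every Gcg-led barcode carried Snhg11 at the level of its class, its depth would have given a UMI in 58.4% of WT and 63.7% of GKO barcodes. The upper 10% of barcodes held 72.4% and 69.6% of the Snhg11 UMIs of that class. In every class of both libraries the observed share lay below the share expected from equal levels. The GKO intervals of 18.5 to 21.6 CPM in insulin-led and 20.9 to 25.8 CPM in Ppy-led barcodes overlapped. Intervals of counting error leave out this clustering in few barcodes.

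In the GKO library 1 nonendocrine barcode held 158 of the 374 Snhg11 UMIs of its class. This barcode had 68692 UMIs, 8118 genes and 16.2% mitochondrial UMIs. It held 692 of the 1334 Vip UMIs of the library, 478 UMIs of Tuba1a (a neuronal tubulin), 325 of Uchl1 (a neuronal ubiquitin hydrolase), 759 of Malat1 and 401 of Meg3, and was singled out after its values were seen. Vip encodes vasoactive intestinal peptide, a neuropeptide of nerve cells in the gut and pancreas. No WT barcode had more than 24 Snhg11 UMIs. Without it the GKO nonendocrine level was 9.09 CPM in place of 15.7.

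The nonendocrine barcodes were then split by 9 marker lists, each barcode going to the list with most markers at 2 or more UMIs, if at least 3. Sets of at least 40 barcodes in both libraries are described. They are named by the list, since markers alone chose them. Endothelial markers were carried by 584 WT and 445 GKO barcodes, activated stellate markers by 257 and 589, quiescent stellate markers by 187 and 433 and macrophage markers by 198 and 448. Ductal markers were carried by 69 and 97, acinar markers by 189 and 82, and B cell markers by 43 and 56. No list took 643 WT and 904 GKO barcodes. Exactly 3 markers, the lowest number allowed, were held by 35 WT and 63 GKO barcodes of the quiescent stellate set, 34 and 30 of the acinar set, and 18 and 18 of the ductal set.

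Malat1 was highest in the barcodes with quiescent stellate markers, at 41238 CPM in WT and 32671 in GKO. It was lowest with B cell markers in WT, at 7524 CPM, and at 12593 CPM in the same set of GKO. In GKO it was 12649 CPM with activated stellate markers, whose interval of 12553 to 12745 overlapped that of the B cell set (12324 to 12866). Endothelial, activated stellate and macrophage sets lay between 12649 and 19965 CPM in the 2 libraries.

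Neat1 was highest among these sets with ductal markers, at 767 CPM in WT and 714 in GKO, and next with macrophage markers, at 526 and 383 CPM. Of the ductal set, 97.1% of WT and 86.6% of GKO barcodes held a Neat1 UMI. The remaining sets lay between 77.6 and 239 CPM. The neutrophil list took 42 barcodes of GKO and 4 of WT, so that only the GKO level is given, 1820 CPM (interval 1553 to 2120) from 165 UMIs at a median of 1773 UMIs per barcode.

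Meg3 was detected with activated stellate markers in 82.1% of WT and 76.9% of GKO barcodes, at 764 and 679 CPM. With endothelial markers 14.7% and 10.6% held it, at 104 and 36.7 CPM. The share of hormone UMIs in this set gave an estimate of free RNA of 2.56% in WT and 2.11% in GKO, which alone would give 35.5 and 33.9 CPM of Meg3. The GKO interval of 30.8 to 43.4 CPM held that estimate, so Meg3 was not distinguishable from free RNA in GKO barcodes with endothelial markers. For activated stellate markers the estimates were 42.5 and 42.9 CPM, far below the measured levels. In the acinar set Meg3 was at 882 CPM in WT and 1033 in GKO but was found in 37.6% and 34.1% of barcodes, with up to 152 and 86 UMIs in 1 barcode. Barcodes that no list took had a median mitochondrial share of 17.9% in WT and 17.5% in GKO, and Meg3 stood there at 1906 and 2064 CPM.

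Snhg11 was near 0 in the sets with endothelial, stellate and macrophage markers, where 14 UMIs were counted over 1226 barcodes in WT and 24 over 1915 barcodes in GKO. Free RNA alone would give 0.671 to 1.22 CPM in these sets, and the measured levels were 0.373 to 1.97 CPM. Most nonendocrine Snhg11 UMIs, 181 of 265 in WT and 329 of 374 in GKO, lay in barcodes that no list took, the barcode with 158 UMIs among them.

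**Figure D3:**
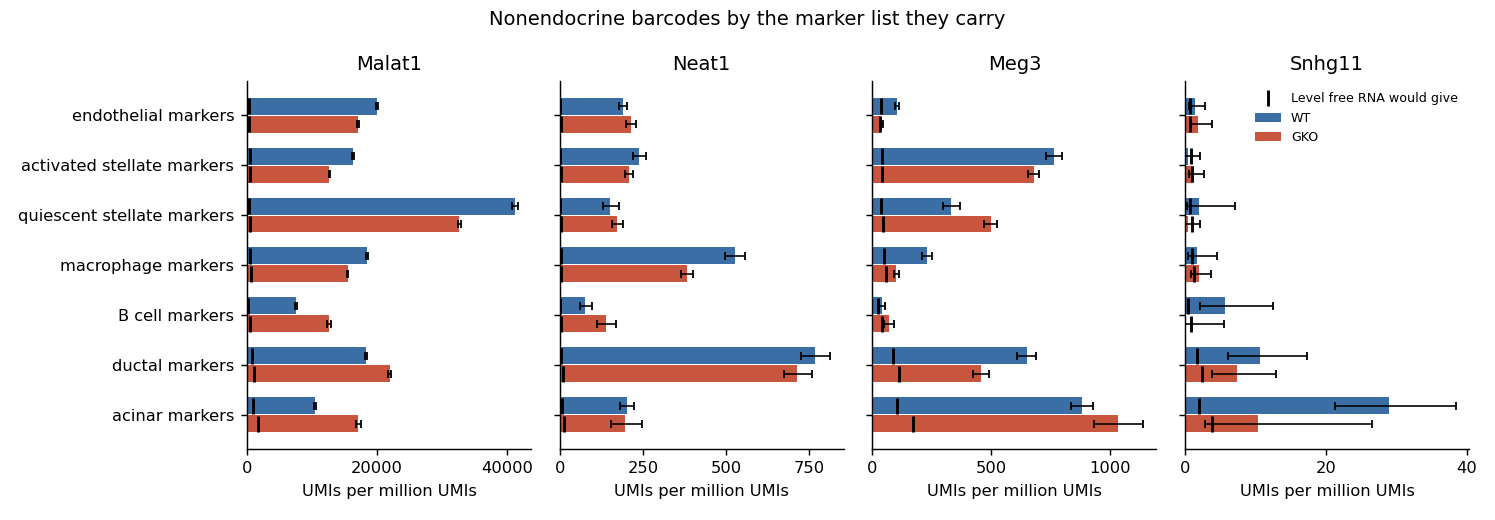
Level of each RNA in the sets of nonendocrine barcodes that carry a marker list, in UMIs per 1000000 UMIs, with WT in blue and GKO in red. Error bars are 95% Poisson intervals, and the black tick on each bar is the level that free RNA would give. Malat1 led with quiescent stellate markers (41238 and 32671 CPM) and Neat1 with ductal markers (767 and 714 CPM), while Snhg11 was close to the ticks in the first 4 sets.

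The comparison of genotypes asks how these RNAs stood in GKO against WT in each class. The nonendocrine class held another mix of cells in each library. Activated stellate markers were carried by 257 WT and 589 GKO barcodes, and endothelial markers by 584 and 445. Ratios in that class thus mix the kinds of cells with the level within them, and the part of each was not tested. To set the members beside all genes, a gene was called higher in GKO when its level was at least 25% above that in WT and lower when it was at least 20% below, which is a log2 ratio of 0.32 either way. Genes counted reached 50 CPM in either library and had 20 UMIs in both. In insulin-led barcodes 5.41% of the 1294 genes counted were higher and 4.4% were lower. The shares were 2.32% and 4.21% of 2281 in Gcg-led, 1.63% and 4.33% of 2704 in Sst-led, 2.39% and 3.55% of 1719 in Ppy-led and 15.7% and 10.4% of 3219 in nonendocrine barcodes. The median gene lay 0.12 (log2) above 0 in insulin-led barcodes and by 0.03 to 0.06 above in the others.

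Neat1 was past this limit in all 4 hormone-led classes. It went from 48.8 to 63.8 CPM in insulin-led barcodes, a log2 ratio of GKO to WT of 0.39 (interval 0.31 to 0.46). It went from 36.2 to 49.4 CPM in Gcg-led barcodes (0.45, 0.30 to 0.61), where it fell just short of 50 CPM and so is not among the genes counted. In Sst-led barcodes it went from 56.4 to 71.9 CPM (0.35, 0.21 to 0.49) and in Ppy-led barcodes from 123 to 180 CPM (0.55, 0.46 to 0.63). Its ratio was above that of 98.6% of the genes counted in Sst-led and 99.2% in Ppy-led barcodes. In insulin-led barcodes Neat1 reached 50 CPM in GKO alone. It was counted there only through the library in which it is high, so its rank is not given. In nonendocrine barcodes the levels were 268 and 280 CPM (0.06, 0.01 to 0.11), above 54.0% of genes. Within the marker sets the Neat1 ratios went both ways. They were -0.46 (-0.56 to -0.35) with macrophage, -0.19 with activated stellate, -0.10 with ductal and -0.03 with acinar markers. They were 0.18 with endothelial and with quiescent stellate markers. With B cell markers the ratio was 0.84 (0.39 to 1.29), from 81 WT and 92 GKO UMIs. Among barcodes with at least 500 genes and up to 10% mitochondrial UMIs the insulin-led ratio was 0.28, under the limit, and the ratios of the other hormone-led classes were 0.44 for Gcg-led, 0.36 for Sst-led and 0.55 for Ppy-led barcodes. With TMM scaling it was 0.26 in insulin-led and 0.31 in Sst-led barcodes, both under the limit. Without hormone genes in the total the insulin-led ratio was 0.27, also under it. With a hormone limit of 25% the insulin-led ratio was 0.27 and the nonendocrine one 0.34, past the limit. A difference between 2 pools of mice cannot be told apart from one due to genotype.

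Malat1 passed the limit in no class. In insulin-led barcodes it went from 6367 to 7621 CPM (log2 ratio 0.26), and by 0.15 with hormone genes left out of the total. The ratios were 0.07 in Gcg-led and Ppy-led barcodes. They were negative, at -0.10 in Sst-led and -0.09 in nonendocrine barcodes. Within the marker sets Malat1 was lower in GKO with endothelial (-0.22), activated stellate (-0.37), quiescent stellate (-0.34) and macrophage markers (-0.26), and higher with ductal (0.26), acinar (0.71) and B cell markers (0.74). The acinar set had a median mitochondrial share of 3.09% in WT and 16.0% in GKO, and its part in the ratio was not tested.

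Meg3 and Snhg11 passed the limit in no class either. Meg3 had a log2 ratio of 0.23 in insulin-led barcodes, 0.12 without hormone genes in the total, and between -0.02 and 0.05 in the other classes. Its intervals included 0 in Sst-led, Ppy-led and nonendocrine barcodes. Snhg11 had ratios of 0.21 (interval 0.08 to 0.34) in insulin-led, 0.27 (0.15 to 0.38) in Gcg-led, 0.20 (0.05 to 0.35) in Sst-led and -0.15 (-0.36 to 0.05) in Ppy-led barcodes. The Snhg11 ratio in nonendocrine barcodes was 0.20 (-0.03 to 0.43), and without the GKO barcode rich in Vip it was -0.59, so that 1 barcode set its direction. Within the marker sets the Meg3 ratios went both ways. In the endothelial set Meg3 was at 104 CPM in WT and 36.7 in GKO, and in the macrophage set at 229 and 101 CPM. Its log2 ratios were -0.51 with ductal and -0.17 with activated stellate markers. They were 0.59 with quiescent stellate, 0.75 with B cell and 0.23 with acinar markers. The B cell value rests on 43 WT and 46 GKO UMIs. Single barcodes held up to 81 Meg3 UMIs in the endothelial and 85 in the macrophage set.

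**Figure D4:**
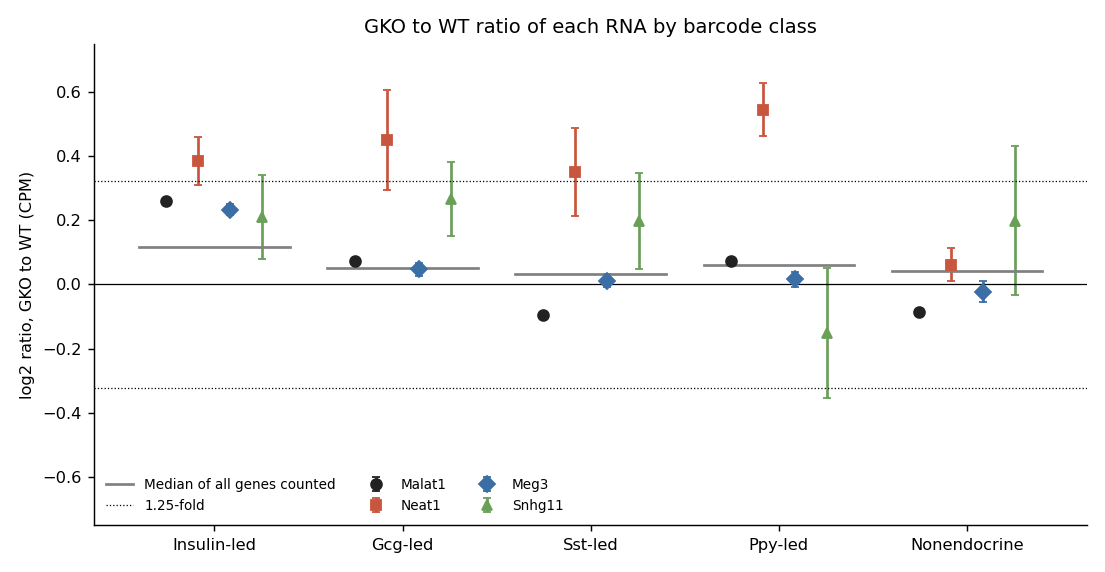
Log2 ratio of GKO to WT for each RNA in each barcode class, from sums of UMIs scaled to CPM. Error bars are 95% intervals of counting error, grey lines give the median of all genes counted in the class and dotted lines mark the limit of 0.32. Neat1 lies above the upper dotted line in the 4 hormone-led classes and at 0.06 in nonendocrine barcodes.

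Genes that share a body, domain or class with the members were followed by 5 lists, among genes with 20 UMIs in both libraries and no minimum in CPM. By that rule 14.8% of all genes were higher and 4.57% lower in insulin-led barcodes, 9.71% and 7.98% in Gcg-led, 9.05% and 6.99% in Sst-led, 10.8% and 5.73% in Ppy-led and 18.3% and 13.6% in nonendocrine barcodes. Of 10 paraspeckle protein genes, which encode the partners of Neat1, none was higher in any class, and 1 was lower in each of the insulin-led, Sst-led and nonendocrine classes. Of 10 nuclear speckle protein genes, none was past the limit either way in any class. The medians of these lists lay between -0.07 and 0.11 (log2). Of the 6 genes of the Dlk1-Dio3 domain, 2 to 4 had at least 20 UMIs in both libraries of a class. Higher were 2 of 3 in insulin-led, 0 of 2 in Gcg-led, 1 of 3 in Sst-led, 1 of 2 in Ppy-led and 2 of 4 in nonendocrine barcodes, and none was lower. Mirg, another maternal RNA downstream of Meg3, had ratios of 0.11 in insulin-led, -0.28 in Gcg-led, -0.29 in Sst-led, -0.15 in Ppy-led and -0.20 in nonendocrine barcodes. B830012L14Rik, a further noncoding gene of the domain, had 0.33, 0.27, 0.06, 0.43 and 0.23. Dlk1, the paternally expressed protein gene of the domain, was at 28.0 CPM in WT and 62.0 in GKO Sst-led barcodes (1.15, 0.98 to 1.32). Its ratios were 0.97 in insulin-led and 2.54 in nonendocrine barcodes, with 97 and 164 UMIs in GKO. Meg3 in Sst-led barcodes had 2689 and 2712 CPM.

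Of 16 snoRNA host genes other than Snhg11, 5 were in the matrices, and none was higher in any class, while 2 were lower in Gcg-led and 1 in each of the Ppy-led and nonendocrine classes. They had medians of -0.12 in insulin-led, -0.25 in Gcg-led, -0.05 in Sst-led and -0.12 in both Ppy-led and nonendocrine barcodes. Of 31 other long noncoding RNAs, 21 were in the matrices and 9 to 14 had 20 UMIs in both libraries. In insulin-led barcodes 7 of 10 were higher and 1 was lower, with a median of 0.37. Of those higher, Kcnq1ot1, Airn, Rmst, Ftx and Jpx had ratios of 0.36 to 0.39, just past the limit of 0.32. The TMM shift in this class was -0.12, more than their distance from the limit. Lncpint and D630023F18Rik had 0.58. The intervals of Rmst (-0.45 to 1.16) and D630023F18Rik (-0.16 to 1.29) included 0. In Gcg-led barcodes 2 of 11 were higher and 1 lower, in Sst-led 0 and 1 of 9, in Ppy-led 1 and 2 of 10 and in nonendocrine 4 and 4 of 14. These counts are descriptions of a list chosen with results of these data known. Kcnq1ot1, the imprinted antisense RNA of the Kcnq1 locus, went from 131 to 168 CPM in insulin-led and from 178 to 217 CPM in Ppy-led barcodes (log2 ratios 0.36 and 0.28).

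The members were then set against the share of mitochondrial UMIs in a barcode, counted over the 13 genes of the mitochondrial genome. A high share is commonly read as a cell that has lost part of its cytoplasm, and whether that holds for these barcodes was not tested. Levels in this comparison are per 1000000 UMIs of genes outside the mitochondrial genome. The steps of mitochondrial share also differ in depth and, among nonendocrine barcodes, in the kinds of cells they hold.

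In insulin-led barcodes Malat1 was higher at every step up to 20 to 50% mitochondrial UMIs. With hormone genes also left out, the WT level was 9243 per 1000000 at 1 to 2%, 19729 at 2 to 3%, 24033 at 3 to 5%, 26284 at 5 to 10%, 48834 at 10 to 20% and 60118 at 20 to 50%. The GKO levels at these steps were 9510, 18327, 24434, 25939, 47984 and 67488, so that the libraries followed the same course. Malat1 UMIs per barcode were higher at each of the first of these steps and lower at the later ones. In WT they numbered 119 at 1 to 2%, 252 at 2 to 3%, 293 at 3 to 5%, 250.0 at 5 to 10%, 241 at 10 to 20% and 116 at 20 to 50%. In GKO they numbered 110.5, 233, 309, 286, 261 and 173. All UMIs outside hormone and mitochondrial genes numbered 12821, 12755, 12189, 9511, 4938 and 1932 per barcode in WT, and 11623, 12689, 12658, 11010, 5441 and 2562 in GKO. From the step of 5 to 10% up to 20 to 50% both counts fell, and Malat1 by less. At 50 to 100%, with 11 WT and 45 GKO barcodes, Malat1 UMIs numbered 12.8 and 14.2 per barcode and the others 269 and 260. The Malat1 level was then lower than at 20 to 50%, at 47716 per 1000000 in WT and 54707 in GKO. At the low end, 14 WT insulin-led barcodes with under 1% mitochondrial UMIs held 16.1 Malat1 UMIs each, at 12828 other UMIs per barcode.

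With over 10% against up to 10% mitochondrial UMIs, Malat1 stood at 28991 against 6415 per 1000000 in WT insulin-led barcodes (94 and 2276 barcodes), 4.52-fold higher. In GKO it stood at 34514 against 7281 (169 and 875 barcodes), 4.74-fold higher. Of all genes, 54.1% in WT and 60.6% in GKO were at least 2-fold higher in this comparison, in which hormone genes made up less of the total in barcodes with over 10%. With hormone genes left out, 6.67% of genes in WT and 15.5% in GKO were at least 2-fold higher. Malat1 was then 2.55-fold higher in WT and 2.61-fold in GKO. Neat1 was 2.25-fold and 3.01-fold higher, from 114 and 254 UMIs in the barcodes rich in mitochondrial UMIs. Meg3 was 1.99-fold and 2.30-fold higher, and Snhg11 2.46-fold and 1.46-fold, from 44 and 41 UMIs. Genes counted for the shares reached 50 per 1000000 in either part of the class. Snhg11 in both libraries and Neat1 in WT reached it only with over 10% mitochondrial UMIs. The shares are thus no measure for them.

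Meg3 was also higher at 20 to 50% than at 1 to 2% mitochondrial UMIs in insulin-led barcodes, but its course differed from that of Malat1. Its WT level without hormone genes was 2304 per 1000000 at 1 to 2% and 3551 at 3 to 5%. It was lower at 5 to 10%, at 3296, then 5555 at 10 to 20% and 9163 at 20 to 50%. The GKO levels at these steps were 2365, 3623, 3670, 5259 and 10838. At 50 to 100% Meg3 was higher still, at 13536 in WT and 13485 in GKO, while Malat1 was lower there. These last values rest on 40 WT and 158 GKO UMIs. Over insulin-led barcodes with at least 2000 UMIs, the rank correlation with the mitochondrial share was 0.38 for Malat1 and 0.32 for Meg3 in 2344 WT barcodes. It was 0.47 and 0.45 in 999 GKO barcodes. These barcodes share 1 library each, and both measures move with depth.

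The other hormone-led classes held few barcodes with over 10% mitochondrial UMIs, and Malat1 showed no common course across these classes. In WT Gcg-led barcodes Malat1 was at 23737 per 1000000 without hormone genes at 2 to 3%, 29112 at 5 to 10% and 44035 at 10 to 20%, the last in 23 barcodes. In GKO Gcg-led barcodes these values were 29217, 31552 and 30531. In WT Sst-led barcodes Malat1 was at 38209 per 1000000 without hormone genes at 2 to 3% and at 36317 at 5 to 10% mitochondrial UMIs. In GKO Sst-led barcodes these values were 36449 and 32197, and 25654 at 10 to 20%. In Ppy-led barcodes Malat1 went from 44105 to 46541 between 2 to 3% and 5 to 10% in WT and from 47595 to 46147 in GKO. At 10 to 20%, 12 WT Ppy-led barcodes stood at 60176. With over 10% mitochondrial UMIs there were 8 Sst-led barcodes in WT and 25 in GKO, and Malat1 was lower in them, at 0.603-fold and 0.825-fold of the others. Meg3 without hormone genes was higher at each further step in Gcg-led and Sst-led barcodes. In Gcg-led barcodes it went from 3185 at 2 to 3% to 6243 at 10 to 20% in WT, and from 3298 to 4706 in GKO. In Sst-led barcodes it went from 3158 at 1 to 2% to 5414 at 5 to 10% in WT. In GKO it went from 3884 at 1 to 2% to 4471 at 10 to 20%. The rank correlation of Meg3 with the mitochondrial share was 0.28 in 1073 WT and 0.25 in 1422 GKO Gcg-led barcodes, and 0.21 in 1420 WT and 0.13 in 1025 GKO Sst-led barcodes. In 729 WT and 676 GKO Ppy-led barcodes it was 0.01 and 0.09. Meg3 levels in GKO Ppy-led barcodes went from 3268 at 1 to 2% to 4438 at 5 to 10%. In WT they were 4074 and 4180 at these steps, and 3917 at 3 to 5%.

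In nonendocrine barcodes Malat1 and Meg3 were higher at a high mitochondrial share. Malat1 stood at 54656 against 20697 per 1000000 in WT (452 and 1737 barcodes) and at 44187 against 19409 in GKO (652 and 2457 barcodes). Meg3 stood at 4143 against 604 in WT, 6.86-fold higher, and at 4099 against 558 in GKO, 7.35-fold higher. Of all genes, 18% in WT and 16.7% in GKO were at least 2-fold higher, and 19.7% and 18.6% with hormone genes left out. Snhg11 was 8.29-fold higher in WT. In GKO it was 20.7-fold higher, and its log2 ratio of 4.37 became 2.17 without the barcode rich in Vip. Snhg11 reached 50 per 1000000, the floor of the genes counted, only in the barcodes with over 10%. The shares of all genes are thus no measure for it. Neat1 was 1.98-fold higher in WT and 1.13-fold in GKO (log2 0.99 and 0.17), and its direction depended on the setting. With all UMIs as the total its log2 ratio was -0.02 in WT and -0.50 in GKO, with a limit of 5% it was 0.33 and -0.37, and when the hormone share left out mitochondrial UMIs it was 0.99 and -0.06.

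The class of such barcodes depends on how the hormone share is taken. When it was taken over UMIs outside the mitochondrial genome, 173 WT and 387 GKO barcodes moved from nonendocrine to insulin-led, and 173 and 384 of them had over 10% mitochondrial UMIs. The insulin-led barcodes with over 10% then numbered 267 in WT and 553 in GKO. Malat1 stood in them at 53677 and 62542 per 1000000 without hormone genes, against 19861 and 21355 in the other insulin-led barcodes. Meg3 stood at 7035 and 8896 against 3114 and 3306. In the nonendocrine barcodes that stayed, Meg3 was at 3988 per 1000000 with over 10% and 596 with up to 10% in WT, and at 3225 and 533 in GKO.

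**Figure D5:**
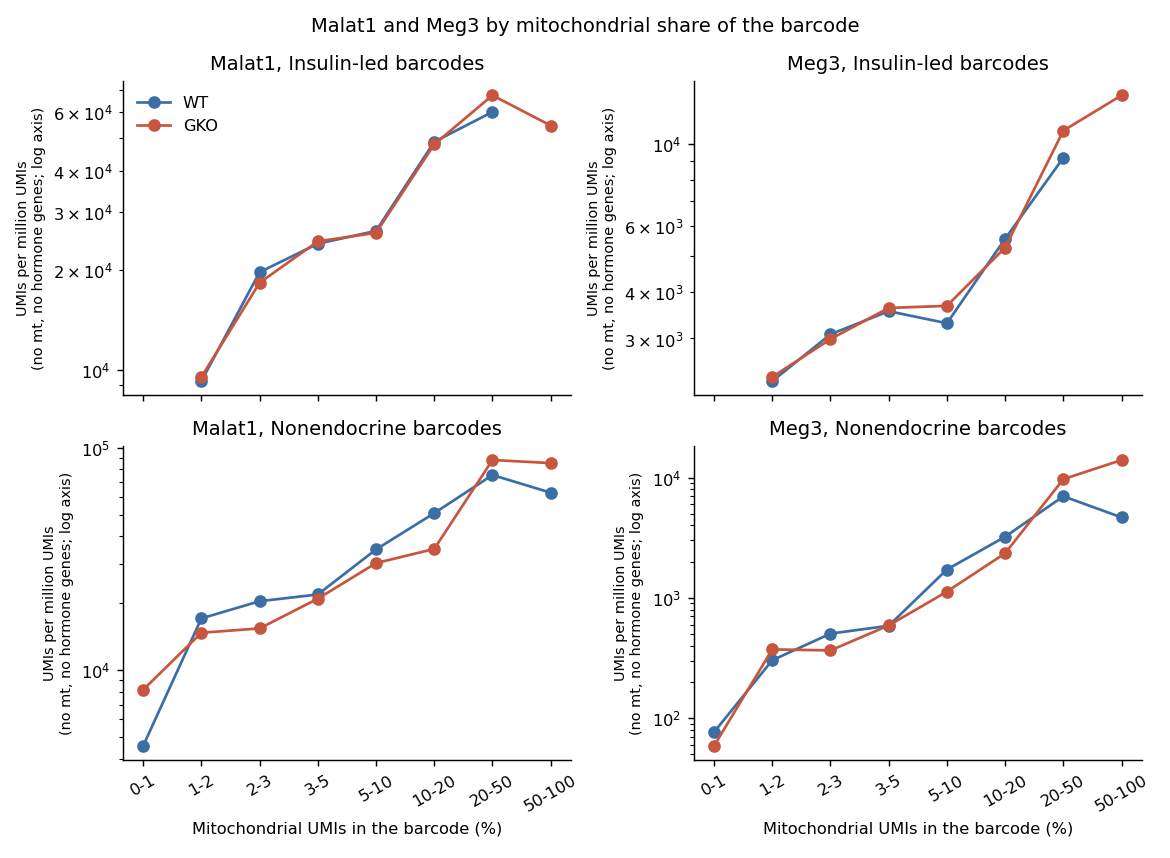
Level of Malat1 (left) and Meg3 (right) by mitochondrial share of the barcode in insulin-led (top) and nonendocrine (bottom) barcodes, with WT in blue and GKO in red. The vertical axes are logarithmic and give UMIs per 1000000 UMIs without mitochondrial and hormone genes, and steps with under 20 barcodes are not drawn. In insulin-led barcodes Malat1 goes from 9243 at 1 to 2% to 60118 at 20 to 50% in WT and from 9510 to 67488 in GKO.

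Other nuclear RNAs of the lists were set in the same comparison, on the total that still holds hormone genes. In insulin-led barcodes the nuclear speckle protein genes had a median log2 ratio of 1.30 in WT and 1.26 in GKO, against medians of 1.11 and 1.28 over all genes with 20 UMIs in both parts of the class. The paraspeckle protein genes had 1.30 and 1.55. The other long noncoding RNAs had 1.82 in WT, over 3 genes with enough UMIs, and 2.09 in GKO, over 6. In nonendocrine barcodes Mirg and B830012L14Rik, neighbors of Meg3 in the Dlk1-Dio3 domain, had ratios of 3.25 and 2.96 in WT and of 3.31 and 3.00 in GKO. Meg3 itself had 2.78 and 2.88 there. The speckle and paraspeckle protein genes had medians of 0.42 and 0.46 in WT and of 0.40 and 0.30 in GKO, and the other long noncoding RNAs 0.99 and 1.29. The 3 snoRNA host genes with enough UMIs had medians of -1.09 in WT, with 2 lower by at least 2-fold and 1 higher, and of -0.19 in GKO, with 1 each way. The medians of all genes with 20 UMIs in both parts of the class were 0.20 and 0.24.

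Genes with the most similar pattern were sought over 22 sums, the 4 hormone-led classes and 7 marker sets of both libraries, among 3868 genes with at least 100 CPM in a sum. The measure was Pearson's r of log2 levels, and the sums of a library share their depth and free RNA. Neat1 was most like Atf3, Zfp36, Nfkbiz, Klf6 and Egr2, with r of 0.91 to 0.90, which are genes of the immediate early and stress response. Their ratios between genotypes did not all go with Neat1. In Ppy-led barcodes Atf3 went from 551 to 468 CPM, and Zfp36 from 65.7 to 70.3 CPM, while Neat1 went from 123 to 180 CPM. In Gcg-led barcodes Atf3 went from 124 to 160 CPM and Zfp36 from 45.8 to 43.2 CPM. The log2 ratios of Nfkbiz, Klf6 and Egr2 were 0.16, 0.13 and 0.43 in Ppy-led barcodes. In Gcg-led barcodes they were -0.07, 0.01 and 1.24, the last from 22 WT and 67 GKO UMIs. In insulin-led barcodes they were 0.12, 0.18 and -0.53, with 0.03 for Atf3 and 0.46 for Zfp36.

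Meg3 was most like Isl1, a transcription factor of islet cells (r = 0.98), Peg3, a paternally expressed imprinted gene (0.95), Ank2 (0.94), Tceal3 (0.94) and Cpe (0.94), which encodes a prohormone-processing enzyme. Snhg11 was most like Camk2b (0.96), Celf3 (0.94), Zfhx2 (0.94), Ncam1 (0.94) and Unc80 (0.94), genes known from neurons. Malat1 had no match above 0.81, the value of Ptms, followed by Zfp467, Mbnl2, Pbxip1 and Snx18 at 0.80 to 0.78. Between members r was 0.74 for Snhg11 with Meg3, and it lay between -0.54 and 0.24 for the remaining pairs.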

How the data were processed

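Islet cells of 1 WT and 1 GKO pool were profiled by droplet-based sequencing of transcript 3′ ends. The authors mapped the reads and made the matrices with Cell Ranger 5.0.1, per the file headers, and the submitters' processing notes name the build mm10. The deposited values are raw UMI counts, with free RNA not removed. All barcodes were used, and doublets were not removed. The members, classes and gene lists were chosen with earlier results of these data known.

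UMIs were summed per class and scaled to CPM, or to UMIs outside the mitochondrial genome. Levels have exact Poisson intervals, ratios exact conditional binomial intervals and shares Clopper-Pearson intervals, all at 95% and for counting error only. Since each genotype is 1 library, nothing was tested. Free RNA was estimated as the hormone share of a set over that of its whole library. The genes named are the 4 members, the 5 genes most like each, and genes of the marker lists and the 5 gene lists. Vip, Tuba1a and Uchl1 were picked after their values were seen. Intervals and fold counts were run on counts simulated with Poisson error alone. The simulation held no clustering by barcode and no difference between pools, so it checks the calculation only. The work used Python 3.11.15 with numpy 2.4.6, with scipy 1.17.1 for intervals, and with pandas 2.3.3 and matplotlib 3.10.9, and R 4.3.3 with edgeR 4.0.16 for TMM factors. Alternatives changed the total, scaling, weight, depth and choice of barcodes. Of these, 2 were added after seeing the data: hormone shares over nonmitochondrial UMIs, and leaving out the barcode with most Snhg11 UMIs.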

Additional observations from a re-analysis of the deposited data

Results flagged for a closer look

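The ratio of GKO to WT for Malat1 differed in sign between barcode classes. The log2 ratio was 0.26 in insulin-led barcodes and 0.07 in Gcg-led and Ppy-led barcodes, but -0.10 in Sst-led and -0.09 in nonendocrine barcodes. The insulin-led ratio lay 0.36 above the Sst-led one and 0.35 above the nonendocrine one. The Gcg-led ratio lay 0.17 and 0.16 above them, and the Ppy-led ratio also 0.17 and 0.16. With 1 library for each genotype these differences were not tested. The median gene counted lay at 0.12 in insulin-led, 0.05 in Gcg-led and 0.06 in Ppy-led barcodes. With TMM scaling the Malat1 ratios were 0.14 in insulin-led, 0.03 in Gcg-led and 0.01 in Ppy-led barcodes. They were -0.13 in Sst-led and -0.11 in nonendocrine barcodes. Among barcodes with 500 genes and up to 10% mitochondrial UMIs the insulin-led ratio was 0.18.

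The ratio of Malat1 between barcodes with over 10% and up to 10% mitochondrial UMIs also differed in sign. On the log2 scale it was 2.18 in insulin-led and -0.73 in Sst-led barcodes of WT, a difference of 2.90. In GKO it was 2.24 and -0.28, a difference of 2.52. The Sst-led values rest on 8 WT and 25 GKO barcodes with over 10%, and the differences were not tested.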

How the results depend on the processing

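Malat1 and Neat1 kept the direction of GKO against WT in all 55 values over classes and alternatives, Meg3 in 46 of 55 and Snhg11 in 51 of 55. Some of these values could not move. Leaving out the GKO barcode rich in Vip changes only the nonendocrine class, and leaving out barcodes with a 2nd hormone cannot change that class. The number of the 5 classes in which GKO was higher past the limit went from 4 to 2 for Neat1 with TMM factors, and to 3 without hormone genes, without hormone, ribosomal protein and mitochondrial genes, or among barcodes with 500 genes and up to 10% mitochondrial UMIs. With a hormone limit of 25% it stayed at 4, with nonendocrine in place of insulin-led barcodes. With equal weight of barcodes it went from 0 to 1 for Malat1 and Meg3 and to 2 for Snhg11, and after thinning to 1, 1 and 3. With the limit of 25% it was 1 for Snhg11. The shares of the genes counted that passed the limit were taken before these changes alone. They were 1.63% to 15.7% for higher and 3.55% to 10.4% for lower over the 5 classes. Under the alternatives they were not taken, so these counts cannot be set beside all genes. Snhg11 was lower in 1 class, in place of 0, with equal weight, after thinning, among barcodes with 500 genes and up to 10% mitochondrial UMIs, with the limit of 25%, and without the GKO barcode rich in Vip.

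The share of all genes at least 2-fold above insulin-led barcodes was not counted. Hormone genes made up 65.5% of UMIs in WT insulin-led and 30.5% in WT Gcg-led barcodes, so the counts that follow are not particular to the members. Against insulin-led barcodes, Malat1 was at least 2-fold higher in 6 of 6 Gcg-led, Sst-led and Ppy-led sums. It was so in 2 when hormone genes, or hormone, ribosomal protein and mitochondrial genes, left the total, or with TMM. Meg3 went from 4 to 0 under each of these, and to 2 with equal weight or thinning. Neat1 went from 2 to 1 without hormone genes, with TMM, with equal weight or with thinning, and to 0 without the 3 gene groups. Snhg11 went from 4 to 1 without hormone genes and to 2 without the 3 groups or with TMM. The log2 ratio of GKO nonendocrine to insulin-led barcodes for Malat1 turned from 1.34 to -0.036 without hormone genes and to -0.043 without the 3 groups.

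With over 10% mitochondrial UMIs, 54.1% of all genes in WT and 60.6% in GKO insulin-led barcodes were at least 2-fold higher. In nonendocrine barcodes 18% and 16.7% were. With hormone genes left out these shares were 6.67%, 15.5%, 19.7% and 18.6%, and under other settings they were not counted. The counts that follow are thus not particular to the members in insulin-led sums. Of the 4 insulin-led and nonendocrine sums, Malat1 was at least 2-fold higher with many mitochondrial UMIs in 4. It was so in 2 with all UMIs as the total and in 3 with a mitochondrial limit of 5%. Neat1 went from 2 to 4 with a limit of 20%, and its direction turned in 4 of 40 values. Snhg11 went from 4 to 2 with a limit of 5%, and to 3 with hormone genes left out. Meg3 stood at 4, and at 3 with hormone genes left out of the total or with a limit of 5%. The causes were not tested. No paired analysis was possible because each genotype has 1 library. Depth limits Snhg11 most, since its sums hold 265 to 1588 UMIs, and without replicates the spread between mice is unknown.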
